A study of Mus musculus with 48 samples.

Results

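RNA from B16-D5 melanoma tumors of WT mice was compared at day 3 between 3 tumors of mice given a control IgG and 3 tumors of mice given no treatment. The 6 tumors were chosen by their titles, which give the treatment, the time and a replicate number, and they are 6 of the 48 tumors sequenced. All 6 were subcutaneous flank tumors of C57BL/6J WT mice, which had arrived aged 4 weeks and spent 2 weeks in the animal house. The tumors had grown for 8 days when treatment began. The IgG group (replicates 2, 3 and 5) had a control antibody, given in doses of 250 µg in 200 µL of PBS on a schedule of day 0 and day 3, and the untreated group (replicates 1, 2 and 4) had no treatment. The antibody and its injection in PBS cannot be told apart here. Whether the day 3 tumors were taken before or after the second dose, and so had 1 dose or both, is not given in the sources used here. B16-D5 is 1 subclone of the B16 melanoma line, so all tumors carry the same cancer cells and differ in the host. The study used IgG and untreated tumors as controls for anti-PD-1 at 6 hours (titled D0), day 1 and day 3, and 30 tumors of this time course share the fit used here.

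An injected antibody without a target in the tumor can still be bound by Fc receptors, which sit on macrophages and other leukocytes. Activating Fc receptors signal through the common γ chain (Fcer1g) and the kinase Syk, and the inhibitory receptor Fcgr2b acts through the phosphatase SHIP1 (Inpp5d). The antibody can also be bound by C1q, the first component of complement, and is recycled by the neonatal Fc receptor (Fcgrt). A control IgG is meant to carry these effects and not the block of PD-1, and the comparison asks whether the tumor RNA differed between mice given such an antibody and mice left alone.

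The 6 libraries held between 28804491 and 42278884 counts on genes, and 26848 genes passed the filter on low counts. The study's description gives 1 tumor per animal for its 6 hour RNA, and the labels do not say so for day 3, so p-values measure the spread between these samples, which may be technical. The treatment field of the labels matched the title in 2 of the 6 tumors and the time field in 0 of them, and the titles were used. As a check of the tissue, the melanocyte genes Gpnmb, Dct and Tyrp1 had between 3832 and 7212 CPM (counts scaled to a common library size by the TMM method) in the 6 tumors. The melanocyte list as a whole had all 16 of its genes tested, and its level was between 8.14 and 8.56 (mean of log2(CPM + 0.5) over its genes, the measure used for every list level below). A pair of tumors stood apart. Untreated replicate 1 had the lowest level of the macrophage, complement and fibroblast lists among all 30 tumors, and had muscle RNA. IgG replicate 3 had the smallest library and the fewest genes with a count (21667, against 23038 to 31755 in the other 5). Of its counts 4.56% were mitochondrial, against 5.47% to 6.85% in the other 5. Untreated replicate 4, not counted in this pair, had the most genes with a count (31755). It also had the highest level of sensory receptor genes, a measure of background counts given below.

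No gene passed the test between IgG and untreated tumors at day 3. In edgeR's quasi-likelihood test 0 of 26848 genes (0.0%) had an adjusted p under 0.05, and the smallest adjusted p was 1. At an unadjusted p under 0.05 there were 366 genes higher in IgG tumors (1.36%) and 343 lower (1.28%). The Wald test of DESeq2 called 15 genes, which are described at the end. The groups did not overlap for 1752 genes that were higher in every IgG tumor (6.53%) and for 1255 that were lower (4.67%), and the log2 fold change was above 0 for 46.2% of genes. The median log2 fold change over all genes was -0.03.

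The precision depended on the level of a gene. For the 7340 genes with a mean between 10 and 100 CPM, the median standard error of a log2 fold change was 0.22 and the median half-width of its 95% interval was 0.45. For the 2075 genes at 100 CPM or more these were 0.20 and 0.40. A smaller change was not detectable in a typical gene even before adjustment. For the 12162 genes under 1 CPM the median half-width was 4.17 on the log2 scale, and 442 of the 709 genes at an unadjusted p under 0.05 belonged to them.

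**Figure D1:**
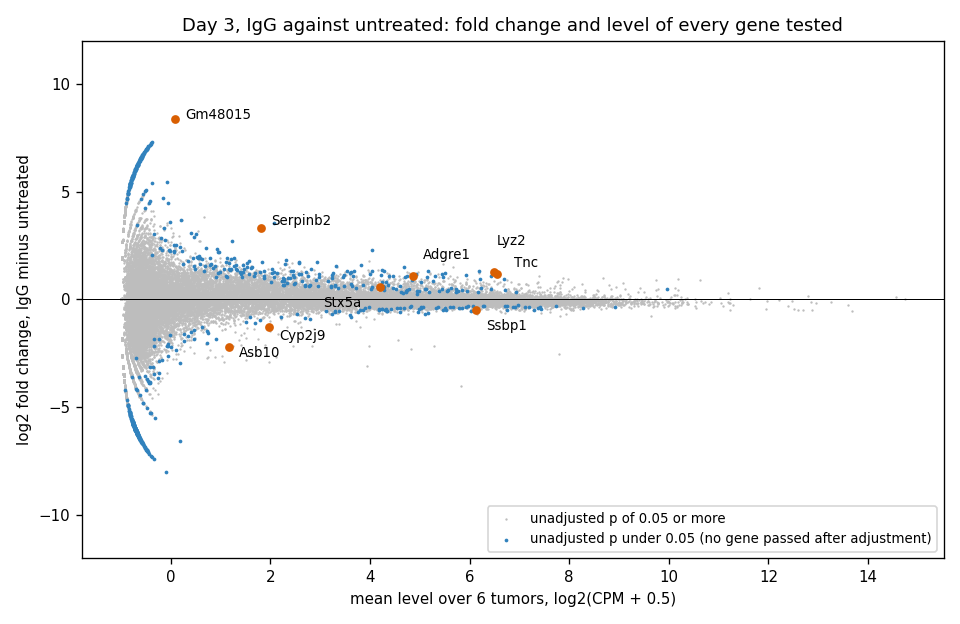
Each point is 1 of 26848 genes, with its mean level over the 6 tumors on the x axis as log2(CPM + 0.5) and the log2 fold change of IgG minus untreated on the y axis. Blue points have an unadjusted p under 0.05, most of them (442 of 709) at a mean under 1 CPM, no gene passed after adjustment, and orange points are genes named in the text.

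The genes nearest to the threshold were a mixed set, and none of them passed the test. They are the 10 per direction with the smallest unadjusted p among genes with a mean of at least 1 CPM and no overlap, a condition met by 9.31% of such genes in the higher direction and 5.59% in the lower. Stx5a (ENSMUSG00000010110.17, chromosome 19, 8741413 to 8756069), which encodes a SNARE of the Golgi, had 13.97, 14.3 and 14.5 CPM in untreated replicates 1, 2 and 4. In IgG replicates 2, 3 and 5 it had 21.1, 23.96 and 18.8 CPM. The untreated tumors were nearly alike and all 3 IgG tumors were above them, by 1.49-fold (log2 0.58, SE 0.18, unadjusted p = 0.00323). Mob2, a regulator of NDR kinases, showed the same narrow groups, with 8.46, 8.21 and 8.37 CPM against 12.7, 13.6 and 12.8 CPM (log2 0.65, SE 0.23).

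Tnc (chromosome 4, 63959785 to 64047015) encodes tenascin C, a matrix glycoprotein of wounds and tumor stroma. It had 69.3, 52.1 and 50.5 CPM in untreated tumors and 145, 76.8 and 168 CPM in IgG tumors. The lowest IgG tumor was just above the highest untreated one, and the difference was 2.27-fold (log2 1.18, SE 0.40, unadjusted p = 0.00687). Serpinb2, which encodes the plasminogen activator inhibitor PAI-2, had 0, 0.839 and 0.801 CPM without treatment. It had 11.4, 1.37 and 3.54 CPM after IgG, so that most of the difference lay in IgG replicate 2 (log2 3.31, SE 1.06, unadjusted p = 0.00446). The other 6 genes of the higher set were Afg1l (a mitochondrial ATPase), Cramp1l (a chromatin protein), the small GTPase Rras, the phospholipid flippase Atp10d, the phosphodiesterase Pde1b and Edrf1 (named for erythroid differentiation). Their log2 fold changes were between 0.37 (Cramp1l) and 1.41 (Pde1b), and Afg1l, Rras, Atp10d, Pde1b and Edrf1 were highest in IgG replicate 3.

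Of the 10 genes in the lower direction, every one had its lowest value in IgG replicate 3. Ssbp1, which encodes the mitochondrial single-stranded DNA-binding protein, had 77.8, 87.1 and 78.7 CPM in untreated tumors and 57.8, 45.2 and 67.8 CPM in IgG tumors (log2 -0.51, SE 0.18, unadjusted p = 0.00888). Cyp2j9, a cytochrome P450, had 6.11, 4.75 and 3.70 CPM against 2.21, 0.670 and 3.19 CPM (log2 -1.26, SE 0.43, unadjusted p = 0.00758). The mitochondrial import gene Tomm5 had a log2 fold change of -0.86, the spliceosome gene Ppil1 -0.60, and Upf3b of nonsense-mediated decay -0.54. Snf8 of the ESCRT-II complex was at -0.46, Ss18l1 of chromatin remodeling complexes at -0.66, Ebag9 (an antigen of many carcinomas) at -0.45, and the SOCS box gene Asb10 at -2.20.

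The genes that bind and handle IgG leaned higher in IgG tumors, and none passed the test. All 10 genes of the Fc receptor list had a log2 fold change above 0, with a median of 0.67, against 46.2% of all genes above 0 and a median of -0.03. For 7 of the 10 the groups did not overlap, against 6.53% of all genes and 9.31% of genes of at least 1 CPM. In the list 1 gene had an unadjusted p under 0.05. The list was drawn up with earlier results of these data known, and its genes are measured in the same tumors, so the count describes these tumors and is no test of the list.

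Fcgr2b (chromosome 1, 170958617 to 170976547), the inhibitory receptor, had 24.01, 33.3 and 30.3 CPM in untreated replicates 1, 2 and 4 and 46.3, 42.6 and 52.7 CPM in IgG replicates 2, 3 and 5. All 3 IgG tumors were above all 3 untreated ones, by 1.62-fold (log2 0.69, SE 0.38, unadjusted p = 0.0769). Fcgr3, an activating receptor, had 15.8, 24.9 and 22.8 CPM without treatment and 29.6, 38.6 and 34.5 CPM after IgG, again with no overlap (log2 0.70, SE 0.40, unadjusted p = 0.0972). The activating and the inhibitory receptor were thus higher by nearly the same factor. These receptors share sequence, and how the counting split reads between them was not tested.

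Fcgr1, the high-affinity receptor, had 6.26, 14.6 and 8.23 CPM against 10.3, 25.5 and 12.6 CPM (log2 0.73, SE 0.52), and the groups overlapped. Fcgr4 overlapped as well, with 15.2, 27.3 and 12.9 CPM against 17.6, 42.9 and 16.9 CPM (log2 0.48, SE 0.58). Both were highest in IgG replicate 3, followed by untreated replicate 2. Downstream, Inpp5d had 39.9, 47.2 and 44.5 CPM against 63.8, 59.2 and 59.0 CPM (log2 0.47, SE 0.22, unadjusted p = 0.0449), the smallest p of the list. The log2 fold change was 0.75 (SE 0.41) for Fcer1g, 0.88 (SE 0.54) for Syk, 0.65 (SE 0.32) for the kinase Lyn and 0.48 (SE 0.37) for Fcgrt, each without overlap.

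Macrophage genes were higher in IgG tumors as a group. All 16 had a log2 fold change above 0 (median 0.66), 9 did not overlap, and 4 had an unadjusted p under 0.05. Of all genes, 6.53% did not overlap (9.31% of those of at least 1 CPM) and 1.36% had such a p. These 4, Adgre1, Ms4a7, Itgam and Lyz2, were singled out after their values were seen, as were the other list members named below that are neither among the 3 most abundant of their list nor in the study's interferon, T cell and Fc receptor genes. Adgre1 (chromosome 17, 57358691 to 57483527) encodes F4/80, the classical surface marker of mouse macrophages, and had 11.7, 25.4 and 17.5 CPM in untreated tumors. In IgG tumors it had 28.7, 53.3 and 34.9 CPM, a 2.14-fold difference (log2 1.10, SE 0.41, unadjusted p = 0.0131). The highest untreated tumor, replicate 2, came close to the lowest IgG tumor, replicate 2.

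Lyz2, the lysozyme of myeloid cells, had 25.2, 71.9 and 57.7 CPM against 126, 125 and 128 CPM (log2 1.29, SE 0.62, unadjusted p = 0.0483). The 3 IgG tumors were nearly alike, and untreated replicate 1 was well below the other untreated tumors. Itgam, the integrin CD11b, had 3.81, 12.1 and 14.6 CPM against 23.1, 32.9 and 23.5 CPM (log2 1.38, SE 0.65, unadjusted p = 0.0449). Ms4a7, a membrane protein of macrophages, had 4.86, 4.80 and 3.81 CPM against 6.73, 14.2 and 9.50 CPM (log2 1.17, SE 0.47, unadjusted p = 0.0185). Apoe and Mrc1, among the 3 most abundant genes of the list, overlapped. Apoe, a lipid carrier that melanoma cells can also make, had 671, 772 and 746 CPM against 828, 655 and 759 CPM (log2 0.03, SE 0.41), and Mrc1, the mannose receptor, had a log2 fold change of 0.54 (SE 0.41).

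Complement genes showed the same direction in 13 of 14 members, with a median log2 fold change of 0.80. Of them 8 did not overlap, against 6.53% of all genes and 9.31% of genes of at least 1 CPM. At an unadjusted p under 0.05 there were 2, against 1.36% of all genes. Without untreated replicate 1 the median was 0.47 and 0 genes had an unadjusted p under 0.05. C1q, which tissue macrophages make, was measured by its 3 chains. C1qb had 49.7, 93.9 and 66.3 CPM in untreated tumors and 111, 161 and 134 CPM in IgG tumors (log2 0.95, SE 0.41, unadjusted p = 0.0291). C1qa had 1.69-fold and C1qc 1.83-fold higher levels, also without overlap and with unadjusted p of 0.189 and 0.0787. C5ar1, the receptor for the C5a fragment on myeloid cells, had 5.11, 14.5 and 14.5 CPM against 21.5, 23.9 and 29.5 CPM (log2 1.14, SE 0.51, unadjusted p = 0.0342). C3 and C4b, the central components, overlapped, with log2 fold changes of 0.67 (SE 0.81) and 0.65 (SE 0.48). In bulk tumors, more cells of a type and more RNA per cell cannot be told apart.

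**Figure D2:**
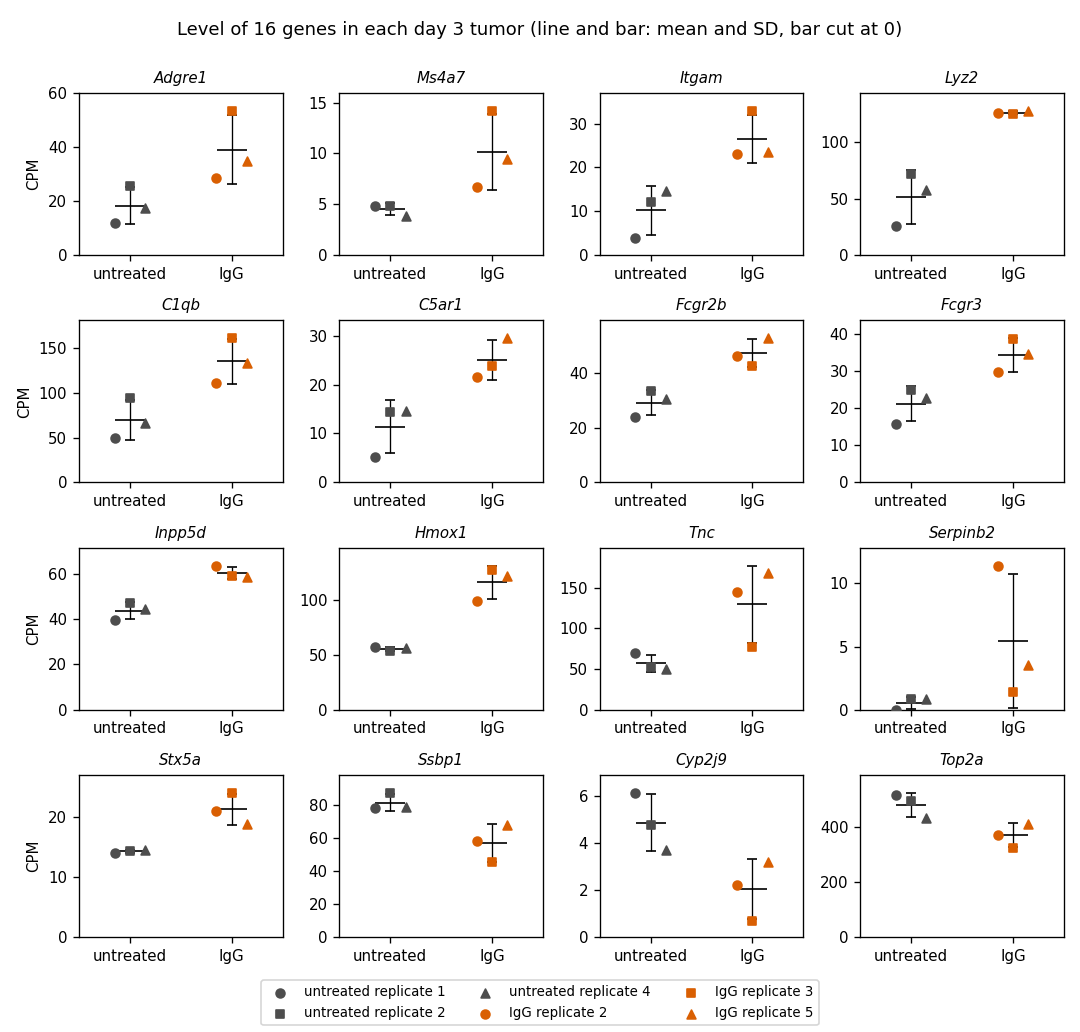
The level of 16 genes in CPM (y axis, from 0) in each of the 3 untreated (grey) and 3 IgG (orange) tumors, where symbols mark the replicates, the line marks the group mean and the bar its SD. Only genes whose groups do not overlap were drawn, so the panels do not show how often groups overlap. Fcgr1, Fcgr4, Mrc1 and C3, of the same lists, overlap and are not shown. None of the 16 genes passed the test. Lyz2 shows 3 IgG tumors between 125 and 128 CPM above untreated tumors between 25.2 and 71.9 CPM.

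Stroma genes were higher in IgG tumors too, and lowest in 1 untreated tumor. All 19 genes of the fibroblast and matrix list had a log2 fold change above 0 (median 0.69), and 0 had an unadjusted p under 0.05. For 12 the groups did not overlap, against 6.53% of all genes and 9.31% of genes of at least 1 CPM. Col1a1, the main chain of type I collagen, had 475, 1379 and 1430 CPM in untreated replicates 1, 2 and 4 and 2097, 1911 and 2139 CPM in IgG replicates 2, 3 and 5 (log2 0.90, SE 0.58). Untreated replicate 1 was far below the other 5. Col3a1 had the same form, with 191, 800 and 795 CPM against 1168, 1055 and 1155 CPM (log2 0.92, SE 0.63).

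Col1a2, the partner chain of Col1a1, had 116, 359 and 350 CPM without treatment and 518, 568 and 548 CPM after IgG (log2 0.99, SE 0.57). Sparc, a collagen-binding protein that tumor cells also make, had 757, 994 and 974 CPM against 1313, 1307 and 1318 CPM (log2 0.53, SE 0.28, unadjusted p = 0.0695). Its 3 IgG values were almost the same. Without untreated replicate 1 the median of the list was 0.32, and 18 of 19 genes were still above 0.

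List levels were also compared tumor by tumor. The macrophage level was 3.84, 4.60 and 4.33 in untreated replicates 1, 2 and 4 and 4.96, 4.99 and 5.05 in IgG replicates 2, 3 and 5, a difference of 0.74. The fibroblast and matrix level was 5.44, 6.72 and 6.81 against 7.10, 6.99 and 7.13. The complement level was 4.06, 5.34 and 5.17 against 5.61, 5.96 and 5.61. For all 3 lists every IgG tumor was above every untreated tumor, and untreated replicate 1 was below the lowest of the other 24 tumors of the time course (4.06, 5.98 and 4.28 in the same order). The IgG tumors were inside the range of those 24 tumors, which reached 5.98, 8.08 and 6.82.

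Of 36 lists with more than 1 gene tested, 5 had a level that was higher in every IgG tumor and 0 had one that was lower. With 3 tumors against 3, an exact two-sided permutation test cannot give a p below 0.1, so no list level could reach the threshold. The other 2 of the 5 were hypoxia and glycolysis and the NRF2 response to oxidative stress. The Fc receptor level overlapped, at 4.13, 4.80 and 4.46 against 4.79, 5.37 and 4.94, because untreated replicate 2 was slightly above IgG replicate 2.

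**Figure D3:**
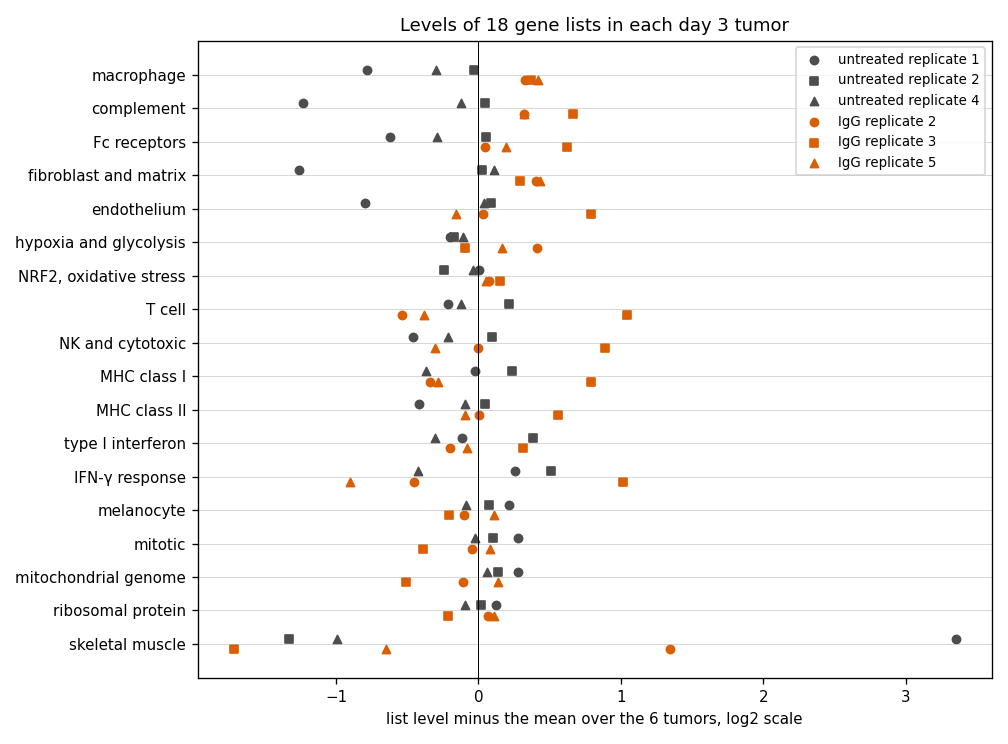
Levels of 18 gene lists in the 3 untreated (grey) and 3 IgG (orange) tumors, as the mean of log2(CPM + 0.5) over the genes of a list minus the mean of the 6 tumors (x axis, log2 scale). The macrophage, complement, and fibroblast and matrix levels do not overlap between groups, untreated replicate 1 is the lowest tumor in each of them and the highest for skeletal muscle, and IgG replicate 3 is the highest tumor for T cell, NK and IFN-γ response genes.

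Both tumors that stood apart set many of the extreme values. Of the 1367 genes of at least 1 CPM that were higher in every IgG tumor, untreated replicate 1 was the lowest untreated tumor in 56.3% and IgG replicate 3 the highest IgG tumor in 51.8%. Of the 821 genes that were lower, IgG replicate 3 was the lowest IgG tumor in 79.4%. Without IgG replicate 3 the count at an unadjusted p under 0.05 was 223 of 30151 genes tested (0.74%), in place of 709 of 26848 (2.64%). Without both tumors it was 203 of 30092 (0.675%). Leaving out any other single tumor gave 604 (1.99%, untreated replicate 2) to 976 (3.2%, IgG replicate 5). The macrophage median stayed at 0.69 without IgG replicate 3, 0.50 without untreated replicate 1 and 0.49 without both, with 15 or 16 of 16 genes above 0 in each case. The complement median was 0.26 and the Fc receptor median 0.34 without both, with 12 of 14 and 7 of 10 genes above 0, and 0 genes of the 3 lists had an unadjusted p under 0.05.

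**Figure D4:**
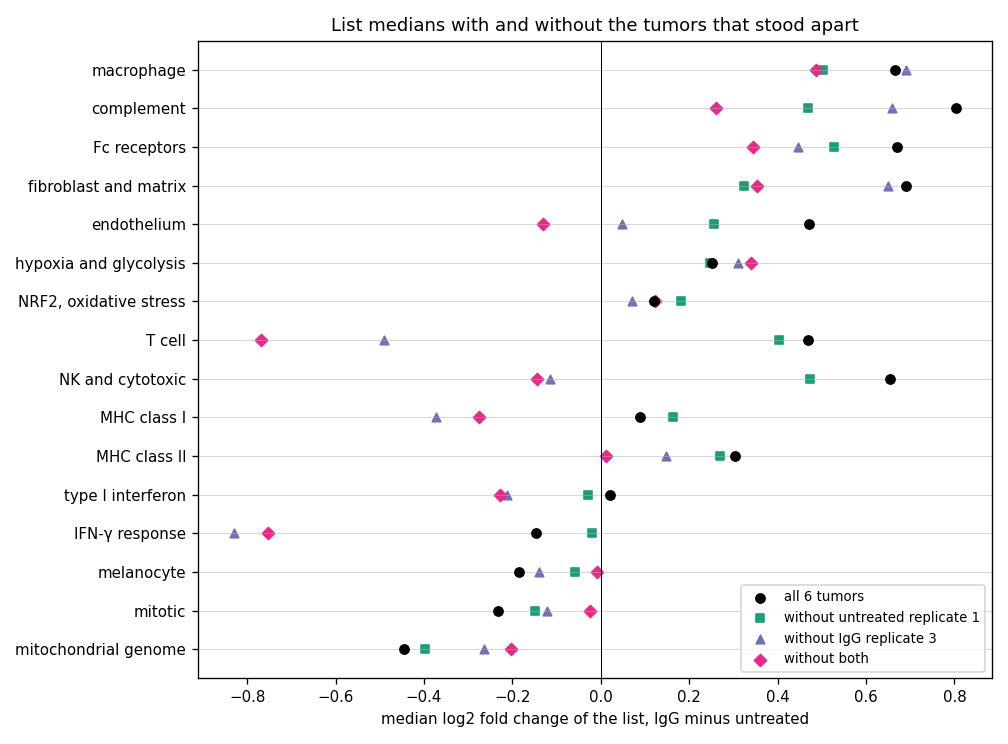
Median log2 fold change of IgG minus untreated (x axis) for 16 gene lists in the fit with all 6 tumors (black), without untreated replicate 1 (green), without IgG replicate 3 (purple) and without both (pink). The macrophage median lies between 0.49 and 0.69 in all 4 fits, while the T cell median goes from 0.47 with all tumors to -0.49 without IgG replicate 3.

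The interferon and nitric oxide genes that the study followed after anti-PD-1 were not separated between the controls at day 3. Nos2, the inducible nitric oxide synthase, had 1.70, 2.49 and 3.31 CPM in untreated tumors and 2.94, 3.17 and 0.913 CPM in IgG tumors (log2 -0.10, SE 0.85, 95% interval -1.84 to 1.65). Irf1, an interferon-induced transcription factor, had 59.3, 64.6 and 35.2 CPM against 40.8, 88.4 and 27.5 CPM (log2 -0.02, SE 0.79). For both genes the spread between tumors was larger than the difference between the means. The intervals are wide enough to hold a 2-fold change in either direction for Nos2 and Irf1, so these data show neither a difference nor its absence.

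The IFN-γ response list had 10 of 30 genes above 0 (median -0.15), and type I interferon genes 17 of 34 (median 0.02), with 0 genes of either at an unadjusted p under 0.05. IFN-γ response levels were 5.28, 5.54 and 4.60 in untreated tumors and 4.57, 6.04 and 4.12 in IgG tumors, so that the IgG group held both the highest and the lowest tumor. Without IgG replicate 3, 0 of 30 genes were above 0 and the median was -0.83, and the type I median was -0.21. Cxcl10, a chemokine induced by IFN-γ, had 333, 336 and 190 CPM against 155, 193 and 150 CPM (log2 -0.79, SE 0.72), and the GTPase gene Irgm1 had a log2 fold change of -0.26 (SE 0.69). Of the type I genes, Bst2 (tetherin) was at -0.34 (SE 0.25) and Ifitm3, which restricts viral entry, at 0.26 (SE 0.44).

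Cd274, which encodes PD-L1, had 28.5, 28.9 and 18.2 CPM without treatment and 23.7, 43.6 and 16.3 CPM after IgG (log2 0.14, SE 0.75). Ifng itself had at most 0.761 CPM, and 0 counts in IgG replicate 5. Cd8a, Cd3e, Pdcd1 and Prf1 were highest in IgG replicate 3, which not every lymphocyte gene was. Cd8a, a chain of the CD8 co-receptor, had 0.801, 2.26 and 0.801 CPM in untreated tumors and 0.941, 7.46 and 0.886 CPM in IgG tumors (log2 1.26, SE 1.20). Cd3e of the T cell receptor complex had 6.66, 14.8 and 7.10 CPM against 2.26, 28.6 and 3.11 CPM (log2 0.25, SE 1.10), and was -1.85 without IgG replicate 3. Pdcd1, the gene of PD-1, had an unadjusted p of 0.0438 on the value of that tumor alone, with 0.401, 0.610 and 0.359 CPM against 0.147, 6.33 and 0.564 CPM. Prf1, the pore-forming protein of killer cells, had 0.851, 3.10 and 2.38 CPM against 4.73, 12.2 and 3.09 CPM (log2 1.66, SE 0.75, unadjusted p = 0.0350).

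Among antigen presentation genes, the list levels of MHC class I and class II were both highest in IgG replicate 3 (7.24 and 5.55). H2-Ab1 of MHC class II had 120, 180 and 178 CPM in untreated tumors and 202, 311 and 188 CPM in IgG tumors (log2 0.55, SE 0.54), and H2-Eb1 had a log2 fold change of 0.70 (SE 0.58). B2m, the light chain of MHC class I, went the other way, with 8322, 7048 and 4801 CPM against 3867, 5792 and 5129 CPM (log2 -0.45, SE 0.34). The class I genes H2-K1 and H2-D1 had log2 fold changes of 0.09 (SE 0.46) and -0.01 (SE 0.38). Unlike B2m, they were highest in IgG replicate 3, with 657 and 661 CPM. For class I the median was 0.09 over 9 genes and for class II 0.30 over 8. Without IgG replicate 3 these were -0.37, with 1 of 9 above 0, and 0.15. The 22 cytokine and chemokine genes had a median of 0.53 with 16 above 0 and 0 at an unadjusted p under 0.05. Without IgG replicate 3 the median was 0.22, and without both tumors that stood apart it was 0.011 with 11 of 22 above 0. Among the 3 most abundant, Tgfb1 had a log2 fold change of 0.26 (SE 0.24), the stromal chemokine Cxcl12 1.26 (SE 0.75) and the monocyte chemokine Ccl2 0.22 (SE 0.45).

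Most genes of melanocytes and of cell division had lower means in IgG tumors, and none passed the test. The melanocyte list had 1 of 16 genes above 0 (median -0.18), and the mitotic list 1 of 16 (median -0.23), with 0 at an unadjusted p under 0.05. Dct, an enzyme of pigment synthesis, had 6214, 5952 and 5629 CPM against 5066, 3832 and 5445 CPM (log2 -0.31, SE 0.19, no overlap). Tyrp1 (log2 -0.05, SE 0.26) and Gpnmb (log2 -0.09, SE 0.18) overlapped. Top2a, the topoisomerase of dividing cells, had 515, 492 and 431 CPM against 372, 324 and 412 CPM (log2 -0.38, SE 0.22, unadjusted p = 0.0927), Ccna2 (cyclin A2) was at -0.43 (SE 0.29) and Mki67 at -0.22 (SE 0.26). Genes of the mitochondrial genome had 1 of 13 above 0 (median -0.44), and mt-Cytb, which encodes cytochrome b, had 16378, 15409 and 14439 CPM against 10998, 7158 and 14163 CPM. IgG replicate 3 was the lowest tumor for each of these genes except Tyrp1 and Gpnmb. The mitochondrial median was -0.26 and the mitotic median -0.12 without IgG replicate 3, and the melanocyte median was -0.06 without untreated replicate 1. Without both tumors, the melanocyte median was -0.0098 and the mitotic median -0.024. Since CPM are shares of a library, a higher share of host RNA and a lower share of tumor cell RNA cannot be told apart.

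Hmox1 (chromosome 8, 75093621 to 75100589) encodes heme oxygenase 1, which breaks down heme and is induced by oxidative stress and in macrophages that take up red cells. It had 57.2, 53.4 and 55.9 CPM in untreated tumors and 99.1, 128 and 122 CPM in IgG tumors. The untreated tumors were alike and all IgG tumors were well above them, by 2.10-fold (log2 1.07, SE 0.41, unadjusted p = 0.0157). The NRF2 list it belongs to had 6 of 10 genes above 0 and a median of 0.12 (between 0.05 without untreated replicate 2 and 0.20 without IgG replicate 2), and Hmox1 was the 1 member at an unadjusted p under 0.05. In the hypoxia and glycolysis list 6 genes did not overlap, against 6.53% of all genes and 9.31% of genes of at least 1 CPM. The list had 18 of 20 above 0 (median 0.25, and 0.16 without IgG replicate 2) and 0 at an unadjusted p under 0.05. Its 3 most abundant genes, Aldoa, Eno1 and Ldha, overlapped, with log2 fold changes of 0.0029 (SE 0.24), 0.06 (SE 0.35) and 0.06 (SE 0.24). Larger differences were seen in genes singled out after their values were seen. Slc2a1, the glucose transporter GLUT1, had 105, 102 and 113 CPM against 225, 144 and 152 CPM (log2 0.70, SE 0.45), the carbonic anhydrase gene Car9 a log2 fold change of 0.74 (SE 0.59), and the oxidase gene Ero1l 0.77 (SE 0.62). IgG replicate 2 was the highest tumor for Slc2a1, Car9 and Ero1l. Per3 of the circadian clock was the only one of its 15 list members at an unadjusted p under 0.05 (log2 0.65, unadjusted p = 0.0275).

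RNA of tissue around the tumor was uneven. The skeletal muscle level was 5.39, 0.704 and 1.05 in untreated replicates 1, 2 and 4 and 3.38, 0.319 and 1.39 in IgG replicates 2, 3 and 5. Ttn, the giant muscle protein titin, had 1087 CPM in untreated replicate 1, 157 in IgG replicate 2 and between 7.28 and 30.6 in the other 4, and the muscle myosin gene Myh1 had 318, 15.8 and at most 3.87 CPM in the same order. All 18 muscle genes were below 0 (median log2 fold change -2.02) with all 6 tumors, and 16 of 18 were above 0 without untreated replicate 1. Keratinocyte levels were between -0.331 and 0.196 and hair follicle levels between -0.645 and -0.171, against a highest value of 8.61 and 6.00 among the other 24 tumors. Xist, which is expressed from the inactive X chromosome of female cells, had 75.7, 205 and 235 CPM in untreated tumors and 303, 447 and 233 CPM in IgG tumors, and was lowest in untreated replicate 1. The part that these tissues take in the other differences was not tested.

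None of the other lists held a gene that passed the test. The endothelial list had a median of 0.47 with 14 of 16 above 0, which was 0.26 without untreated replicate 1 and 0.048 without IgG replicate 3. B cell genes had a median of -0.19 over 11, which ranged from -0.96 without IgG replicate 3 to 0.18 without untreated replicate 4. Dendritic cell genes had 0.32 over 11, and -0.20 without IgG replicate 3. Only 6 of 12 neutrophil genes could be tested, and the defining genes S100a8, S100a9 and Ly6g were not among them. Ribosomal protein genes had a median of -0.04 over 79 and replication-dependent histone genes -0.06 over 60. Over the lists of named genes, 13 of 474 tested genes (2.74%) had an unadjusted p under 0.05, a share close to the 2.64% of all genes, and these 13 were higher in IgG tumors. The sensory receptor genes, kept apart as a measure of background counts, had 10 higher and 15 lower of 543 at an unadjusted p under 0.05. Their median log2 fold change was -0.73, with 191 above 0 and 337 below. Their summed level was 29.3, 130 and 292 CPM in untreated replicates 1, 2 and 4. In IgG replicates 2, 3 and 5 it was 79.4, 142 and 90.7 CPM. The part that background counts take in the differences of genes at low levels was not tested.

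The same contrast was available at 6 hours and day 1 in other tumors, and the change between times was tested in the same fit. Against day 1, 0 of 26848 genes had an adjusted p under 0.05 (smallest 0.9999), and 887 (3.3%) had an unadjusted p under 0.05. Against 6 hours there were 0 at an adjusted p under 0.05 and 1247 (4.64%) at an unadjusted one. The macrophage level of IgG tumors minus that of untreated tumors was 0.15 at 6 hours, 0.55 at day 1 and 0.74 at day 3, without overlap only at day 3. The Fc receptor difference was 0.33, 0.76 and 0.57, without overlap only at day 1. The fibroblast and matrix difference was 0.25, 0.52 and 0.75.

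Interferon genes had another order. The IFN-γ response level differed by 0.63 at 6 hours, 1.36 at day 1 and -0.23 at day 3, with overlap at each time, and MHC class I by 0.35, 1.12 and 0.11, without overlap at day 1. None of these changes between times was tested as a list. For single genes, the log2 fold change of Adgre1 at day 3 exceeded that at 6 hours by 1.17 (unadjusted p = 0.0524) and differed from day 1 by -0.03, and that of Hmox1 exceeded 6 hours by 1.06 and day 1 by 0.89 (unadjusted p = 0.0792 and 0.136). The day 3 anti-PD-1 tumors, given for reference only, had 22.3, 37.6 and 20.9 CPM of Adgre1 and 87.4, 131 and 171 CPM of Hmox1.

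**Figure D5:**
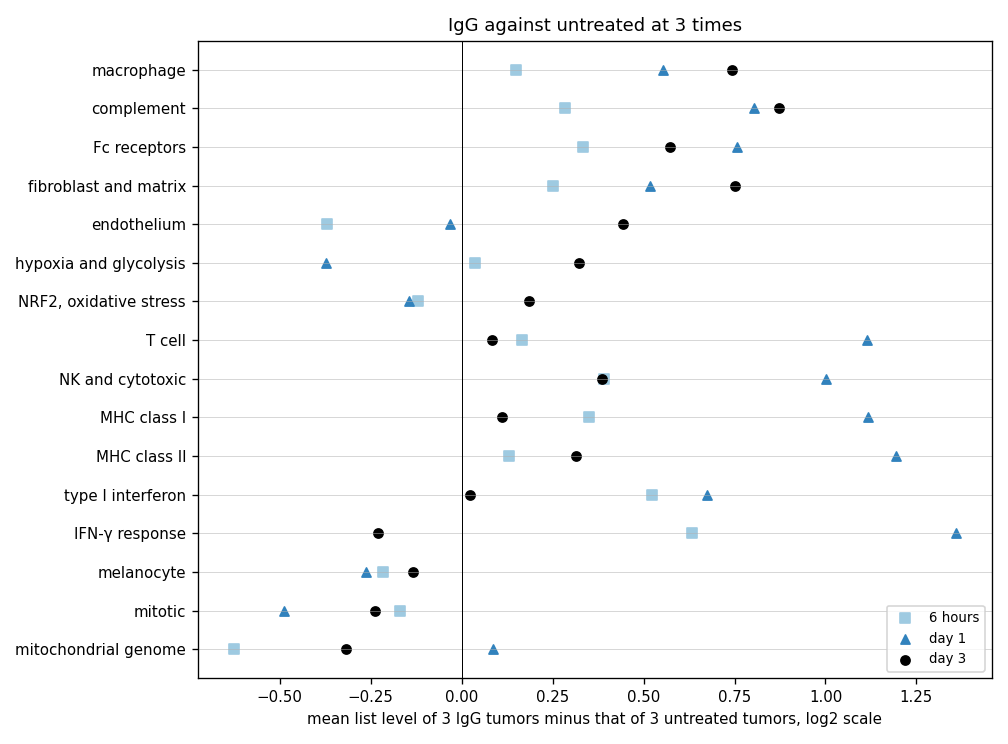
Mean level of 3 IgG tumors minus mean level of 3 untreated tumors (x axis, log2 scale) for 16 gene lists at 6 hours (light squares), day 1 (blue triangles) and day 3 (black circles), each time in tumors of its own. Macrophage genes go from 0.15 to 0.55 and 0.74, and IFN-γ response genes from 0.63 to 1.36 and -0.23. The day 3 values include untreated replicate 1, the lowest tumor of the time course for macrophage and fibroblast genes. The differences between times were not tested as lists.

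The 15 genes called by the Wald test of DESeq2 were named after their values were seen, and 14 of them had almost no counts in these 6 tumors. For these 14 every count was 0 in 1 group, and the other group had counts in 1 or 2 tumors. The highest count was 90, for the muscle gene Csrp3 in untreated replicate 1, and the other 13 reached at most 18. They include genes of skin and its cornified layer (Krt15, Kprp, Lce1c, Lce1m, Sprr1a and Sprr1b). Krt15 had 0, 12 and 18 counts in untreated tumors and 0 in all 3 IgG tumors, and up to 29743 among the other 24 tumors. In the edgeR test the 14 genes had unadjusted p between 0.0357 (Csrp3) and 0.631 (Kprp). Gm48015 was the remaining gene.

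Gm48015 (ENSMUSG00000112067.1, chromosome 12, 95734110 to 95735409), a gene model whose transcript has no experimental proof in the annotation, had 0 counts in all 3 untreated tumors and 24, 66 and 24 counts in IgG replicates 2, 3 and 5. Its mean in IgG tumors was at least 14.3-fold above the limit that a count of 0 allows (3 counts in each untreated library), and its unadjusted p in edgeR was 0.00124. At other times untreated tumors had it too. At day 1 it had 0.647, 0.228 and 0.629 CPM in untreated tumors and 0.694, 0.315 and 1.05 CPM in IgG tumors, with overlap. At 6 hours it had 0, 0.271 and 0 CPM against 0.183, 0.317 and 0 CPM. The model lies within the span of Flrt2 on the same strand. Flrt2, a membrane protein of fibroblasts and developing tissue, had 8.11, 17.3 and 22.6 CPM in untreated tumors and 31.6, 30.4 and 31.8 CPM in IgG tumors (log2 0.97, SE 0.59), and how the counting split reads between them was not tested. Across all genes, 57 were above 3 counts in every IgG tumor and at or below 3 in every untreated tumor, and 116 were the reverse, none of them with a mean above 0.560 CPM.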

How the data were processed

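RNA was sequenced from B16-D5 tumors, and the deposited table holds counts per gene for each tumor. Per the labels, reads were trimmed with cutadapt 1.8.1, aligned with STAR 2.7.7a to mm10 and quantified with RSEM 1.3.0. The deposited counts are whole numbers, and which counter wrote them could not be settled. All 55450 gene identifiers matched GENCODE vM21, which gave symbols and coordinates (mm10).

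Groups were taken from the sample titles. The 30 WT time-course tumors (10 groups of 3) were fitted together with edgeR 4.0.16 (R 4.3.3, limma 3.58.1), using TMM factors, genes kept by filterByExpr at a minimum count of 10, and the quasi-likelihood F-test with 20 residual degrees of freedom (common coefficient of biological variation 0.671). Benjamini-Hochberg adjustment ran over 26848 genes with a threshold of 0.05. The standard error was the log2 fold change divided by the square root of F. DESeq2 1.42.0 was an alternative, with the settings given in the closing section. The scripts were tested on simulated data. Tables and plots used Python 3.11.15, pandas 2.3.3, numpy 2.4.6 and matplotlib 3.10.9.

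CPM used TMM-scaled library sizes, and a count of 0 allows up to 3 counts, or 0.0751 to 0.0913 CPM, for counting error only. The comparison, its members and the gene lists were chosen with earlier results of these data known. Named genes were the 10 per direction with the smallest unadjusted p, no overlap and a mean of at least 1 CPM (gene models with Gm or Rik symbols left out), the 3 most abundant of a list, and 10 fixed genes, and others are said to be chosen later. Tumors outside this time course were not used here. The background covariate among the alternatives was the log2 of the summed CPM of olfactory, vomeronasal and taste receptor genes. A few of the named genes are not reported here.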

Additional observations from a re-analysis of the deposited data

Results flagged for a closer look

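The IgG effect on Cyp2j9, a cytochrome P450 gene, had opposite signs at day 3 and day 1, with every tumor on its side. At day 1 it had 2.86, 2.82 and 2.02 CPM in untreated tumors and 3.81, 4.07 and 4.88 CPM in IgG tumors, all higher. At day 3 it had 6.11, 4.75 and 3.70 CPM in untreated tumors and 2.21, 0.670 and 3.19 CPM in IgG tumors, all lower. On the mean of log2(CPM + 0.5) the difference was 0.64 at day 1 and -1.21 at day 3, a change of -1.85. The interaction term in edgeR was -1.99 (SE 0.61, unadjusted p = 0.00316), and its adjusted p over all genes was 0.9999, so the change did not pass the test. The gene was flagged for these same values, in a search of the lists and of genes named in the text. The unadjusted p is therefore no separate support.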

How the results depend on the processing

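The count of genes at an adjusted p under 0.05 at day 3 was 0 under size factors, no filter, a background covariate, robust dispersion, the 6 libraries alone and each library left out (range 0 to 0), and 15 with DESeq2's Wald test, which also gave Gm48015 a log2 fold change of 7.92. With each library left out, genes at an unadjusted p under 0.05 ranged from 223 (0.74%, without IgG replicate 3) to 976 (3.2%, without IgG replicate 5). The main fit had 2.64%. Of these genes, 24.7% (without untreated replicate 1) to 66.1% (without untreated replicate 4) were higher, against 51.6% in the main fit. The share that was higher was 46.8% under size factors, 63.8% without a filter, 67.4% with the covariate and 60.3% with 6 libraries. Without a filter 1247 of 49294 genes (2.53%) had an unadjusted p under 0.05. With 6 libraries it was 1467 of 18779 (7.81%), and the smallest adjusted p was 0.286. Day 3 against day 1 gave 75 genes without a filter, 74 of them lower, and they included the muscle genes Myl1, Neb, Ttn and Tnnc2. The muscle level of IgG minus untreated tumors was 2.35 at day 1 and -0.68 at day 3, with overlap at both times. Replicate numbers did not pair the tumors (median r -0.03 over 65 pairs, 1 number shared at day 3). The replicate block gave 0 genes, 537 at an unadjusted p under 0.05 (41.9% higher), and turned Apoe to -0.22, Tyrp1 to 0.10, Gpnmb to 0.042, Cd3e to -0.85, Ttn to 0.79 and Myh1 to 0.11. Irf1 was 0.034 under size factors, 0.035 in DESeq2, 0.013 without a filter, 0.025 with the covariate and 0.017 with 6 libraries. With each library left out, or both untreated replicate 1 and IgG replicate 3 (a setting chosen after seeing the data), log2 fold changes changed sign for Nos2 (-0.60 to 0.33), Irf1 (-0.66 to 0.33), Ifng (-0.51 to 0.73), Cd274 (-0.36 to 0.46), Cd8a (-0.75 to 2.00), Fcgr1 (-0.0057 to 1.19), Fcgr4 (-0.23 to 0.91), C3 (-0.11 to 1.25), Apoe (-0.031 to 0.094), Mki67 (-0.35 to 0.018), Tyrp1 (-0.14 to 0.14), Gpnmb (-0.17 to 0.12), Cd3e (-2.03 to 0.80), Pdcd1 (-0.46 to 2.98), Cxcl12 (-0.046 to 1.69), Ttn (-4.33 to 1.88) and Myh1 (-5.78 to 3.54). The highest values of Ttn and Myh1 came without both tumors, and were 1.33 and 2.94 without untreated replicate 1 alone. Fcgr1, C3, Mki67 and Cxcl12 changed sign only without both tumors, and the lowest values of Cd8a, Fcgr4, Cd3e and Pdcd1 came there too. The cause was not tested.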
